A study of Arabidopsis thaliana with 14 samples.

Results

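The response of gibberellin-deficient ga1-3 seed of Arabidopsis thaliana to KAR1 (karrikinolide), a butenolide of smoke, was described on 6 of the 14 arrays of the series. The ga1-3 seed was kept on wet agar (0.8%) at 20 C in white light (100 uE) for 24 h, without KAR1 for 3 arrays and with 1 uM KAR1 for the other 3. Each treatment was given to the same 3 harvests of primary dormant seed, lettered A to C, so every KAR1 array has a water array of its own seed batch. The other 8 arrays are wild type Landsberg erecta seed under both treatments, with 4 harvests each. All ga1-3 arrays carry the ga1-3 allele, and the labels give neither the ecotype of this line nor the dissection of the seed, so whole seed is taken to hold embryo, endosperm and seed coat. Values are 1 deposited intensity per probe set and array on a linear scale. Of 22746 probe sets that are not controls, 10903 had a mean of 16 or more on water or on KAR1 in ga1-3 and are called measured. The annotation gives 5949 of these 1 gene, 247 several genes and 4707 none.

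Karrikins are perceived in Arabidopsis by the alpha/beta hydrolase KAI2, which acts with the F-box protein MAX2 to remove the repressors SMAX1 and SMXL2. In seed this pathway is known for promoting germination and for making seed and seedling more responsive to light. GA1 encodes ent-copalyl diphosphate synthase, which makes the first committed precursor of gibberellins, and seed of ga1-3 does not germinate without added gibberellin. The 6 arrays thus compare treatments in seed that makes very little gibberellin. None of the 12 listed genes of karrikin perception and response and none of the 17 listed genes of gibberellin metabolism, GA1 included, has a probe set under its name in the annotation, so neither pathway nor the mutated gene could be read here.

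The deposited values of the 6 arrays were alike in overall signal. Median intensities ran from 10.8 to 11.1, and 47.2% to 47.4% of probe sets were at 16 or more. The authors had already processed the values with GCRMA, so this likeness cannot show that the RNA samples were alike. The storage protein gene PAP85, a marker of seed tissue, stood between 22844 and 26166 on all 6. No listed marker of endosperm or of embryo epidermis has a named probe set, so the seed tissues could not be told apart, and in whole seed fewer cells of a type and less RNA per cell cannot be told apart either. Seed batch A stood apart from B and C. Batch means differed at least 2-fold for 679 measured probe sets between A and B, for 582 between A and C and for 0 between B and C. The mean log2 intensity of 45 spiked control probe sets was 7.17 and 7.26 in the arrays of batch A and between 7.69 and 7.88 in the others.

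Few measured transcripts of ga1-3 seed passed the test for a difference between KAR1 and water. With 3 seed batches, not passing does not show an unchanged level. The median log2 difference, KAR1 minus water, over the measured probe sets was -0.02, and a small set stood well above it. This median does not measure the size of the differences. Differences were tested with limma on log2 intensity, with the seed batch as a block and Benjamini-Hochberg adjustment. Fitted over all 22746 probe sets, 3 passed an adjusted p of 0.05, which is 0.0132%, all upward. Only AT3G55720 among them was measured. AT5G56980 (5.3 to 10.1 on the 6 arrays) and the unnamed probe set 265091_s_at (5.1 to 14.3) lay under 16 on every array, and were singled out after their values were seen. Fitted over the 10903 measured probe sets, 107 passed (0.981%), of which 63 were higher on KAR1 (0.578%) and 44 were lower (0.404%). In that fit 1626 of the 10903 had an unadjusted p under 0.05. The verbs rose and fell below refer to this second fit, and the adjusted p of the fit over all probe sets is given beside it for the genes described in full. The 107 rest on the seed batch as a block and on all 3 batches: 0 passed without the block, 12, 20 and 14 passed without ga1-3 batch A, B and C, and 68 and 51 without wild type batch A and C, whose arrays enter the estimate of the spread. Of 32 genes named here that passed this fit, 5 still passed without each ga1-3 batch in turn, AT3G55720, AT1G33590, AT3G60290, AT1G25275 and AT1G03890, and the other 27 missed the threshold in at least 1 such fit.

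**Figure D1:**
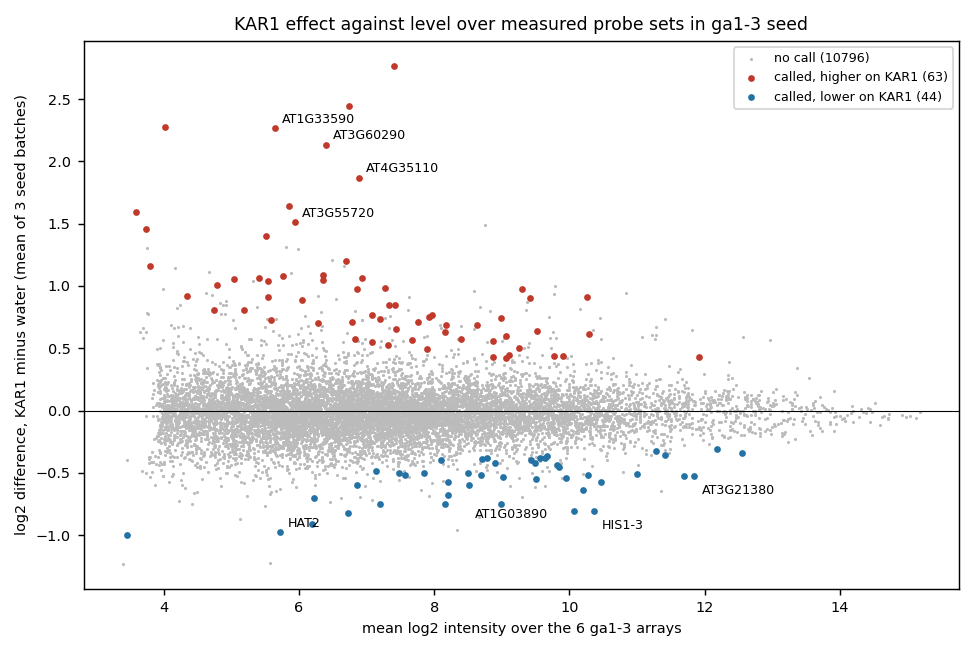
Mean log2 intensity over the 6 ga1-3 arrays (horizontal axis) against the log2 difference, KAR1 minus water, averaged over 3 seed batches (vertical axis), for 10903 measured probe sets. Red points are the 63 and blue points the 44 called in the fit over measured probe sets; the red points reach 2.77, while no blue point lies below -0.999.

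Called differences were larger upward than downward. Called differences upward ran from 0.42 to 2.77 with a median of 0.81, and those downward from -0.31 to -0.999 with a median of -0.52. At least 2-fold differences were seen in 21 upward and 0 downward calls. All 107 moved the same way in the 3 batches, against 15.8% of measured probe sets that were higher and 20.9% that were lower in all 3. In 68 of them the KAR1 arrays did not overlap the water arrays, while 3.73% of the measured probe sets stood wholly above and 5.08% wholly below. The calls were chosen on these same values by a fit that favours agreement between batches. Both counts thus describe the calls and are no separate support for them. Of the 107, 5 reached 16 only on KAR1 and 1 only on water, so these had to differ to be counted. An annotation with 1 gene was given for 53, 28 upward and 25 downward.

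Near the threshold the median difference was close to 0 on both sides, and the range was wider inside. The 107 probe sets whose higher group mean lay between 16 and 17 had a median difference of -0.04, from -1.23 to 0.66. The 108 between 15 and 16, just outside, had a median of -0.03, from -0.59 to 0.36.

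Among measured probe sets with a named gene, AT3G55720, which encodes a protein of unknown function, had the smallest p in both fits. Its intensity in batches A, B and C was 34.6, 34.3 and 40.5 on water and 107.2, 92.8 and 112.6 on KAR1. The 3 batches gave nearly the same rise, of 1.63, 1.44 and 1.47 on the log2 scale, and the groups were far apart. The mean of the 3 pairs was 1.51 ± 0.13 (SE of the fit over all 14 arrays), 2.86-fold. Its adjusted p was 0.000772 over the measured probe sets and 0.0489 over all. Without ga1-3 batch A, B or C the adjusted p over all became 0.226, 0.212 and 0.282, and over the measured probe sets 0.0129, 0.0208 and 0.0118.

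The named genes with the steepest rise were AT1G33590, AT3G60290 and AT4G35110. AT1G33590, a leucine-rich repeat protein gene, stood at 10.5, 29.4 and 37.9 on water and at 80.1, 139.2 and 116.9 on KAR1. Every KAR1 array lay above every water array although batch A was low under both treatments. The rise was 2.27 ± 0.26, 4.81-fold, with an adjusted p of 0.00148 over the measured and 0.0967 over all probe sets.

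AT3G60290 encodes a 2-oxoglutarate-dependent oxygenase, a class of enzymes with many roles in hormone and secondary metabolism. It stood at 49.6, 37.2 and 35.1 on water and at 358.0, 127.8 and 119.9 on KAR1. Batch A was the highest on KAR1, and B and C alone gave differences of 1.78 and 1.77 on the log2 scale. The mean rise was 2.13 ± 0.28, with an adjusted p of 0.0062 over the measured and 0.126 over all probe sets.

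AT4G35110, of the PEARLI 4 family of phospholipase-like proteins, stood at 26.8, 75.6 and 116.6 on water and at 145.2, 289.9 and 273.3 on KAR1. The groups did not overlap, and the rise was 1.87 ± 0.30 with an adjusted p of 0.013 over the measured and 0.191 over all probe sets. AT2G16660, a transporter gene of the major facilitator superfamily, went from 13.9, 46.1 and 55.4 to 84.5, 117.8 and 108.1. Its rise of 1.64 ± 0.35 was uneven, smallest in batch C at 0.96, and its adjusted p was 0.0401 over the measured and 0.293 over all probe sets.

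**Figure D2:**
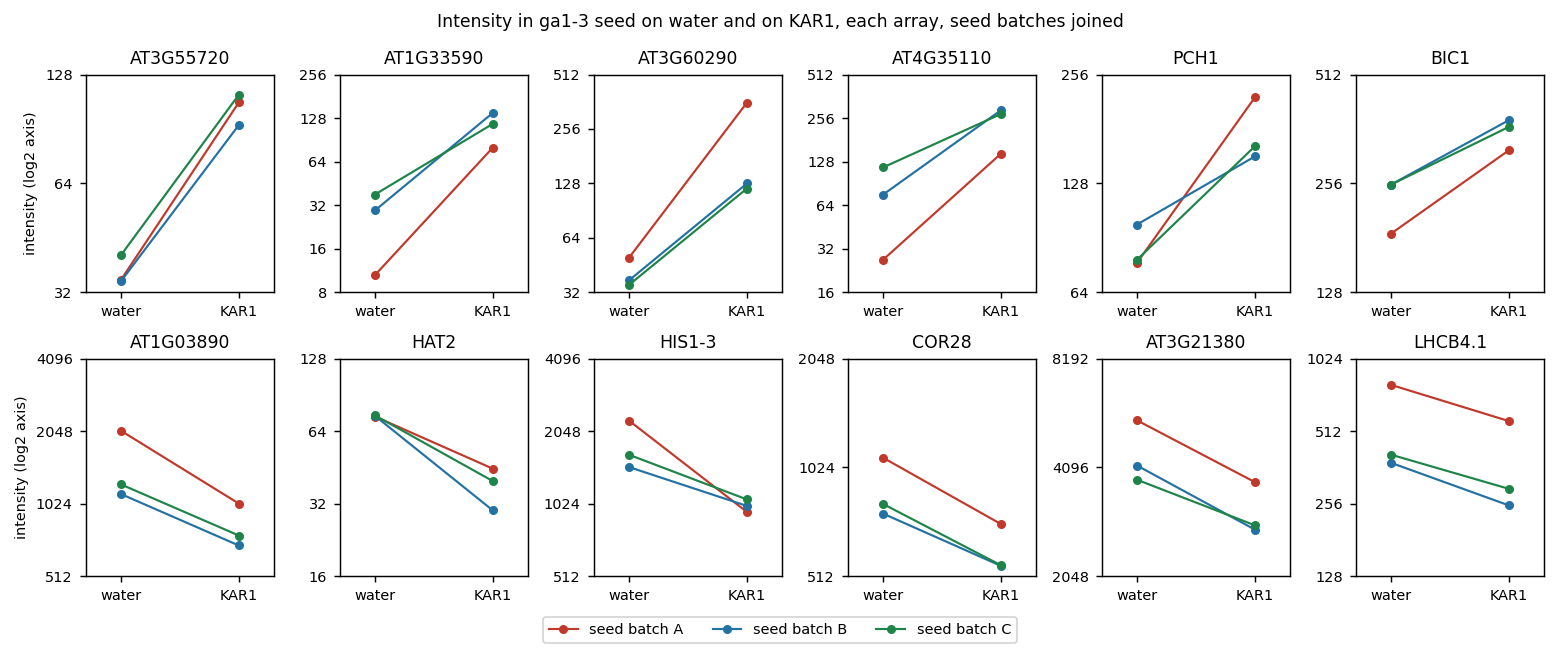
Intensity (vertical axis, log2 scale, different for each gene) on water and on KAR1 for 12 genes in ga1-3 seed, with the 2 arrays of each seed batch joined by a line. The upper 6 genes were higher and the lower 6 lower on KAR1 in every batch; for LHCB4.1 the groups overlap because batch A (796.5 and 563.4) stands above B and C under both treatments.

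AT1G08230, which encodes a transporter of gamma-aminobutyric acid, was among the genes with a smaller rise. It stood at 14.1, 38.1 and 38.5 on water and at 23.8, 69.1 and 67.3 on KAR1. Its groups overlapped through the low batch A, yet each batch rose by nearly the same amount, between 0.76 and 0.86. The mean was 0.81 ± 0.08 with an adjusted p of 0.0119 over the measured and 0.0653 over all probe sets. AT1G25520, of the UPF0016 family of membrane proteins, went from 92.8, 121.1 and 100.5 to 180.0, 180.0 and 171.6. This rise of 0.77 ± 0.10 (1.70-fold) separated the groups and had an adjusted p of 0.0105 over the measured and 0.118 over all probe sets.

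AT1G25275 and AT3G14880 also rose. AT1G25275 went from 400.9, 456.4 and 497.2 to 968.1, 915.7 and 778.2, a rise of 0.97 ± 0.13 with an adjusted p of 0.0033 over the measured and 0.119 over all probe sets. AT3G14880 went from 345.1, 279.9 and 320.4 to 575.3, 489.6 and 460.2, a rise of 0.69 ± 0.09 with adjusted p of 0.00838 and 0.126. In neither gene did the groups overlap.

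Other named genes that rose were AT1G07440, of the tropinone reductase-like dehydrogenases (1.16 ± 0.25), AT1G74450 (1.01 ± 0.15) and AT5G48540, a cysteine-rich repeat secretory protein gene (0.66 ± 0.10). AT1G07440 was near the limit of measurement, at 13.1, 7.6 and 8.1 on water and 46.9, 12.9 and 15 on KAR1, and was measured only through its KAR1 mean. AT2G24240, a BTB/POZ domain protein gene chosen with earlier results known, did not pass, at 10.6, 10.7 and 10.7 on water and 14.7, 16.2 and 19.0 on KAR1 (0.63 ± 0.10, adjusted p of 0.0529 over the measured and 0.191 over all probe sets). Its groups did not overlap, and it too was measured only through its KAR1 mean.

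Some genes with a large difference in batch A and less in the others did not pass the test. The galactose mutarotase-like gene AT3G47800 stood at 34.5, 66.3 and 90.8 on water and at 168.2, 138.9 and 109.7 on KAR1 (1.21 ± 0.35, adjusted p of 0.114 over the measured probe sets). AT5G57785 stood at 129.4, 337.1 and 389.6 on water and at 628.6, 796.6 and 746.0 on KAR1 (1.49 ± 0.38, adjusted p of 0.106). In both, every KAR1 array lay above every water array, and the spread between batches was large.

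The 4 measured genes of light signalling stood higher on KAR1. The list, chosen with earlier results of these data known, has 32 genes, 5 with a named probe set and 4 of them measured. These 4 were also set by name with those results known, so the shares below describe them and are no separate support. All 4 were higher on KAR1 in every batch with no overlap, 3 of 4 rose, and their median difference was 0.63. Over all measured probe sets 15.8% were higher in every batch, 3.73% lay wholly above, 0.578% were called upward and the median was -0.02.

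BIC1 (AT3G52740) and BIC2 (AT3G44450) encode inhibitors of the blue light receptors, the cryptochromes. BIC1 stood at 185.9, 254.0 and 254.0 on water and at 316.2, 383.0 and 367.0 on KAR1, and rose by 0.63 ± 0.09 with an adjusted p of 0.0163 over the measured and 0.158 over all probe sets. BIC2 stood at 71.8, 81.6 and 103.1 on water and at 120.8, 153.5 and 119.3 on KAR1 (0.62 ± 0.18, adjusted p of 0.108 over the measured probe sets). The mean differences of both genes were nearly equal, and BIC2 missed the threshold with batch C at 0.21.

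PCH1 (AT2G16365) encodes a protein that binds phytochrome B and keeps it active, and it showed the largest difference of the list. It stood at 77.2, 98.5 and 78.7 on water and at 221.5, 152.0 and 162.2 on KAR1, and rose by 1.06 ± 0.20 with an adjusted p of 0.0187 over the measured and 0.232 over all probe sets. HYH, a bZIP factor closely related to the light regulator HY5, went from 102.0, 89.0 and 88.0 to 161.6, 129.7 and 125.3. This rise of 0.57 ± 0.11 had an adjusted p of 0.0445 over the measured and 0.252 over all probe sets. FHL, a factor that carries phytochrome A to the nucleus, was at 4.7 on all 6 arrays and not measured.

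The 3 measured genes of the clock and of light and cold regulation stood lower on KAR1. COR27 and COR28 among them were set by name with earlier results of these data known. The shares below thus describe these genes and are no separate support. Of 19 listed genes, 3 were measured, all 3 were lower in every batch with no overlap, and 1 of 3 fell. Over all measured probe sets 20.9% were lower in every batch, 5.08% lay wholly below and 0.404% were called lower. The median difference of the 3 was -0.55. COR28 (AT4G33980), a repressor that links light and cold to the clock, went from 1089.7, 763.2 and 811.6 to 713.9, 547.0 and 549.1. It fell by 0.55 on the log2 scale (SE 0.11), with an adjusted p of 0.0274 over the measured and 0.25 over all probe sets. Its close relative COR27 stood at 82.5, 46.5 and 53.0 on water and at 43.9, 30.0 and 31.5 on KAR1 (-0.76 ± 0.21, adjusted p of 0.0861 over the measured probe sets). GI, which encodes the clock protein GIGANTEA, stood at 259.0, 318.5 and 284.5 on water and at 214.4, 236.7 and 257.6 on KAR1 (-0.28 ± 0.13, adjusted p of 0.319). The KAR1 arrays of these 3 genes were all below the water arrays, with the smallest gap in GI.

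Hormone genes were sparsely covered. HAT2, an auxin-responsive homeodomain-leucine zipper factor and the only measured gene of the 23 on the auxin and shade list, went from 73.6, 74.1 and 74.4 to 44.7, 30.0 and 39.7. The water arrays were almost identical and each KAR1 array was lower. HAT2 fell by 0.98 (SE 0.14), 1.97-fold, with an adjusted p of 0.0145 over the measured and 0.153 over all probe sets. XERICO, a RING finger protein that raises abscisic acid in Arabidopsis, was the only measured gene of the 30 on the abscisic acid list. It went from 1459.5, 905.5 and 934.4 to 952.3, 717.5 and 709.3 and fell by 0.45 (SE 0.09), with an adjusted p of 0.0457 over the measured and 0.276 over all probe sets. Its groups overlapped, since the KAR1 array of batch A lay above the water arrays of B and C.

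Of 15 listed gibberellin signalling genes 4 were measured, 0 passed in either fit and their median difference was 0.00. GID1A, a gibberellin receptor, stood at 831.2, 1344.1 and 1265.3 on water and at 916.5, 1205.4 and 1253.0 on KAR1 (-0.01 ± 0.07). The second receptor GID1C (0.07 ± 0.16) and the F-box gene SLY1 (0.01 ± 0.10), whose protein removes the DELLA repressors, did not pass either. SPY, an O-fucosyltransferase that acts on DELLA proteins, stood at 825.8, 831.2 and 789.2 on water and at 724.2, 643.3 and 668.7 on KAR1. Its groups did not overlap, at -0.27 ± 0.08 with an adjusted p of 0.169 over the measured probe sets. Single listed genes of the ethylene and jasmonate pathways, EIN3 (-0.10 ± 0.07) and MYC3 (0.03 ± 0.11), did not pass either, and no brassinosteroid gene of the list has a named probe set.

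Among genes of seed maturation, 1 storage gene and 1 histone gene fell. AT1G03890, a cupin storage protein gene, went from 2056.1, 1123.2 and 1231.5 to 1025.2, 686.9 and 755.6. The groups did not overlap, and it fell by 0.81 (SE 0.11), 1.75-fold, with an adjusted p of 0.00418 over the measured and 0.119 over all probe sets. PAP85, the other measured gene of the 14 on the storage and oil body list, stood at 26166, 25181 and 25644 on water and at 24795, 22844 and 23569 on KAR1 (-0.11 ± 0.03, adjusted p of 0.207 over the measured probe sets).

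HIS1-3, a linker histone induced by drought and abscisic acid, went from 2264.8, 1453.2 and 1634.5 to 946.3, 1002.5 and 1066.5. It fell by 0.80 (SE 0.15), 1.75-fold, with an adjusted p of 0.0201 over the measured and 0.232 over all probe sets, and batch A, the highest on water, was the lowest on KAR1. The late embryogenesis genes LEA4-5 (-0.02 ± 0.05) and M17 (-0.04 ± 0.07) of the same list of 12 did not pass, and the median over its 3 measured genes was -0.04. The 5 measured genes of reserve mobilisation, of 16 listed, ran from -0.05 to 0.18 and 0 passed. ICL, the isocitrate lyase of the glyoxylate cycle, stood between 14383 and 17530 on all 6 arrays.

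Of 27 listed nuclear genes of photosynthesis and chlorophyll, 5 have a named probe set and 2 were measured. LHCB4.1, the light-harvesting protein CP29, went from 796.5, 378.3 and 408.9 to 563.4, 251.8 and 295.0. It fell by 0.50, 0.59 and 0.47 in the 3 batches and by 0.52 on average (SE 0.06), with an adjusted p of 0.012 over the measured and 0.0967 over all probe sets. LHCB4.3, a second gene of that protein, stood at 64.4, 92.5 and 88.2 on water and at 69.0, 97.2 and 110.2 on KAR1 (0.16 ± 0.11, adjusted p of 0.587).

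The largest intensities among the named calls that fell belonged to AT3G14595 and AT3G21380. AT3G14595, of the L18ae protein family, went from 9286.7, 5750.5 and 5786.7 to 7217.1, 4762.8 and 4397.7 and fell by 0.34 (SE 0.06), with an adjusted p of 0.0226 over the measured and 0.203 over all probe sets. AT3G21380, a jacalin-type lectin gene, went from 5527.4, 4145.2 and 3786.7 to 3728.7, 2756.4 and 2832.3. Its KAR1 arrays lay below all water arrays, and it fell by 0.53 (SE 0.07), 1.44-fold, with an adjusted p of 0.0062 and 0.118.

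The steepest falls among the named genes were in AT4G34140 (-0.999 ± 0.228), HAT2, AT5G13240 (-0.91 ± 0.20) and AT5G47020 (-0.82 ± 0.15). AT4G34140 was near the limit, at 26.6, 12.6 and 11 on water and at 11.6, 5.1 and 7.8 on KAR1, and was measured only through its water mean. AT5G13240 went from 96.9, 100.8 and 103.7 to 33.2, 74.5 and 61.9, and AT5G47020 from 153.0, 115.1 and 157.7 to 87.5, 71.6 and 80.8. In the latter pair the groups did not overlap. Smaller falls passed in AT5G05880, a glycosyltransferase gene (-0.60 ± 0.11), AT5G03380, of the heavy metal-associated domain proteins (-0.50 ± 0.09), AT1G32700, a PLATZ-type factor (-0.50 ± 0.09), AT1G13340, of the IST1-like proteins (-0.43 ± 0.08), AT5G03180 (-0.42 ± 0.08) and AT2G41710, of the AP2 factor family (-0.38 ± 0.06). IQD28, an IQ-domain protein gene, stood at 97.6, 72.9 and 76.0 on water and at 72.6, 54.3 and 52.2 on KAR1 and missed the threshold (-0.46 ± 0.08, adjusted p of 0.0777).

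AT3G20340 had the lowest mean difference of all measured probe sets and did not pass. It stood at 22.6, 17.7 and 10.6 on water and at 5.6, 6.6 and 8.9 on KAR1 (-1.23 ± 0.38, adjusted p of 0.124), and it was measured only through its water mean.

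Enzymes that add sugars or oxidise small molecules were looked at as families chosen after values had been seen. Of 21 measured genes that carry a UGT symbol (UDP-glycosyltransferases), 0 passed, 7 were higher and 2 lower in every batch, against 15.8% and 20.9% of all measured probe sets, and the median was 0.11. AT5G05880, which fell, has no such symbol here and is not among the 21. UGT78D1 and UGT78D2, which glycosylate flavonols and anthocyanidins, are the 2 measured genes of the 13 on the flavonoid list. UGT78D2 stood at 485.9, 1526.1 and 1527.3 on water and at 994.2, 2211.4 and 1976.3 on KAR1 (0.65 ± 0.20, adjusted p of 0.131), and UGT78D1 showed a like pattern (0.81 ± 0.27, adjusted p of 0.153). Each batch was higher on KAR1, by 1.03 to 0.37 in UGT78D2, but the low batch A made the groups overlap. Of 6 measured cytochrome P450 genes, CYP71B6 alone passed. It went from 127.3, 264.1 and 213.9 to 238.8, 395.2 and 372.9, a rise of 0.76 with an adjusted p of 0.0165 over the measured probe sets.

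Genes of cell wall loosening and growth showed 0 calls. EXPA8, an expansin gene, stood at 11.8, 12.1 and 12.4 on water and at 47.0, 18.3 and 22.3 on KAR1 (1.15 ± 0.46, adjusted p of 0.22). It was measured only through its KAR1 mean, and batch A was far above the other batches on KAR1. EXPA4 stood at 119.5, 77.6 and 77.3 on water and at 74.9, 70.7 and 77.5 on KAR1 (-0.27 ± 0.21). The other 17 listed wall genes were not measured, and of 5 measured tubulin and actin genes 0 passed, TUA6 being the highest (0.79, adjusted p of 0.151).

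**Figure D3:**
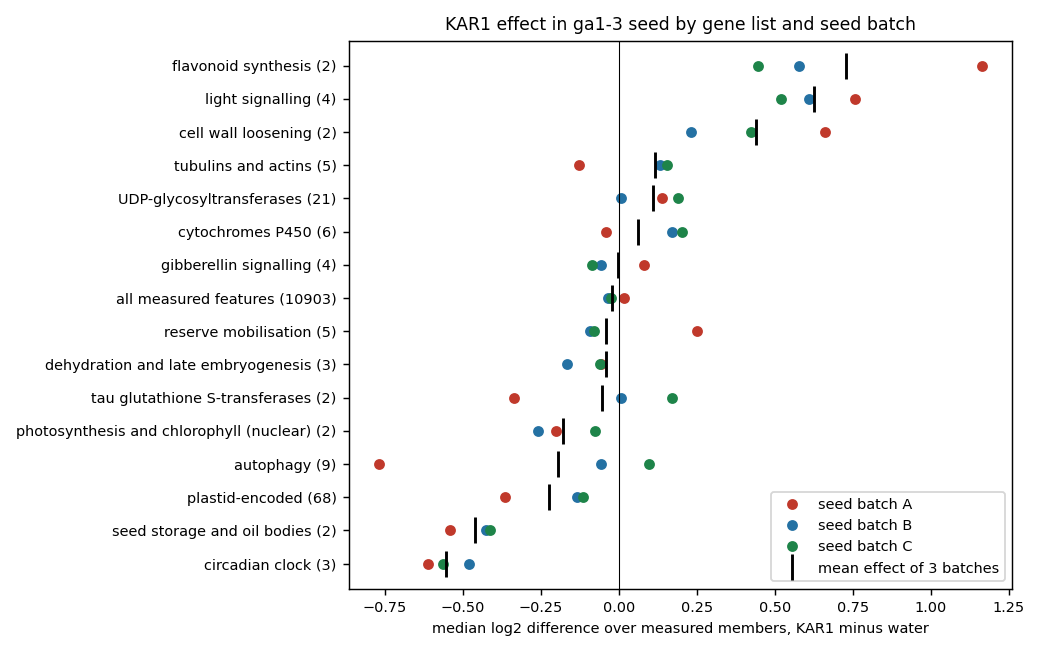
Median log2 difference, KAR1 minus water (horizontal axis), over the measured members of each gene list (vertical axis, number of members in brackets) in ga1-3 seed batches A, B and C (coloured points) and for the mean effect over the 3 batches (black bar). Light signalling (0.63) and the circadian clock (-0.55) keep their side in all 3 batches. So do several other lists, among them flavonoid synthesis, seed storage and plastid-encoded genes. Autophagy is at -0.77 in batch A, -0.06 in B and 0.10 in C.

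With 1 water and 1 KAR1 array per seed batch, the differences within a batch have no replicate of their own. Over the measured probe sets the SD of the log2 difference was 0.376 in batch A, 0.258 in B and 0.236 in C. At least 2-fold differences numbered 118 up and 145 down in A, 24 up and 23 down in B, and 23 up and 4 down in C. The difference was at least 2-fold upward in every batch for 9 probe sets and downward in every batch for 0. Of these 9, the named ones were AT1G33590, AT3G60290, AT3G55720 and AT4G35110. Across measured probe sets, which are not independent replicates, the differences of A and B correlated at 0.284, those of A and C at 0.298 and those of B and C at 0.332 (Pearson).

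Among the calls batch A also had the larger differences. The median over the 63 upward calls was 0.97 in A, 0.72 in B and 0.69 in C, and over the 44 downward calls -0.61, -0.48 and -0.46. Batch A held the largest of the 3 differences for 47 of the 63 and for 25 of the 44. Calls were required to be large against the spread between batches, so these values describe the calls and not KAR1 in general.

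**Figure D4:**
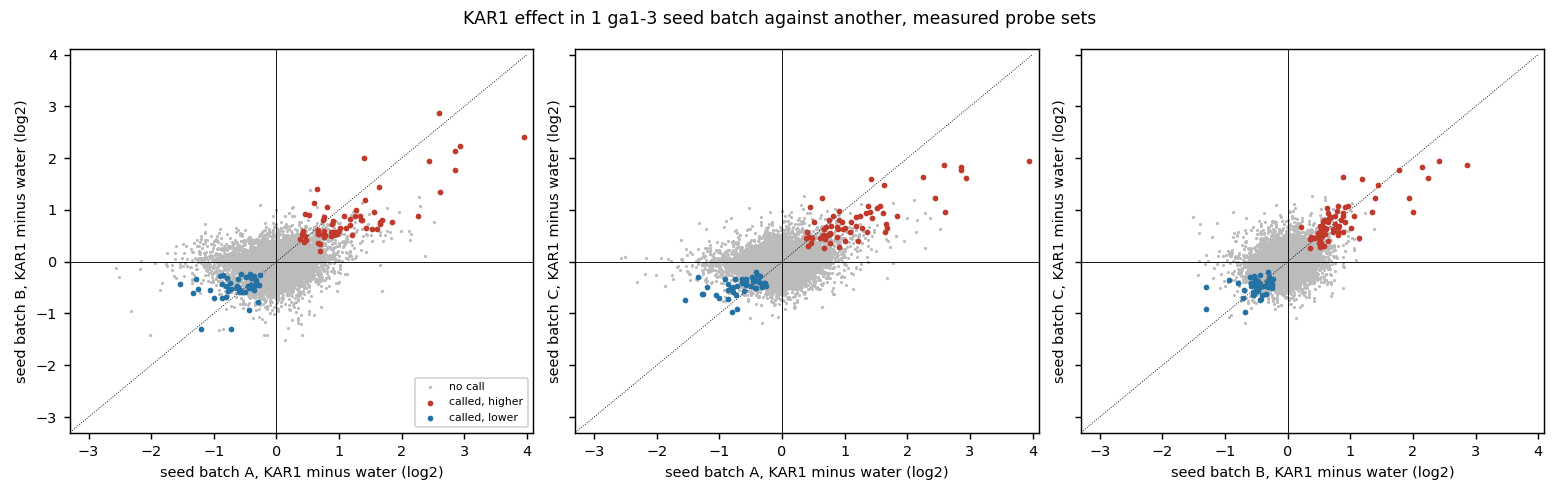
Log2 difference, KAR1 minus water, in 1 ga1-3 seed batch (horizontal axis) against another (vertical axis) for the measured probe sets, with the 63 upward calls in red, the 44 downward calls in blue and equality as a dotted line. Grey points spread along the axis of batch A, with 97 probe sets at least 2-fold higher and 143 at least 2-fold lower in A only.

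Differences of at least 2-fold downward in batch A were mostly absent from B and C, with 143 of the 145 seen in A and in neither of the others. PAHX, a phytanoyl-CoA hydroxylase gene singled out after its values were seen, stood at 875.3, 944.7 and 937.4 on water and at 336.7, 879.8 and 946.1 on KAR1. The KAR1 array of batch A stood alone there, and the other 5 lay between 875.3 and 946.1. AT5G45790 had the same shape, at 50.4, 42.4 and 49.4 on water and 8.5, 39.0 and 51.7 on KAR1. The dynein light chain gene AT3G16120 differed in the water array instead, at 1184.4, 384.1 and 353.3 on water and 260.7, 347.8 and 301.1 on KAR1. It had an adjusted p of 0.28 over the measured probe sets.

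Autophagy genes of the ATG8 family, whose products coat autophagosome membranes, stood lower on KAR1 in batch A. All 9 measured members were lower on KAR1 in batch A, with a median of -0.77, while the medians in B and C were -0.06 and 0.10. ATG8A, listed in the annotation as APG8A, stood at 546.9, 564.8 and 543.5 on water and at 257.3, 520.4 and 537.7 on KAR1. ATG8H stood at 350.9, 239.5 and 263.2 on water and at 126.1, 270.3 and 300.8 on KAR1. Over the 3 batches 0 of 9 passed, and the median was -0.19. The spiked controls were lower in both arrays of batch A, at 7.26 on water and 7.17 on KAR1. They were at 7.88 and 7.81 in batch B and at 7.79 and 7.69 in C. Their part in the values was not tested.

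Plastid-encoded transcripts, a group added after values had been seen, had a median difference below that of all measured probe sets. Of 68 measured, 0 passed. In every batch 15 were lower and 0 higher, against 20.9% and 15.8% of all measured probe sets. Wholly below stood 10, against 5.08%. Their median difference was -0.22, at -0.37 in batch A, -0.13 in B and -0.11 in C. The largest mean difference was in psbB, a core antenna protein of photosystem II, at 378.6, 184.3 and 192.7 on water and 243.7, 146.1 and 125.1 on KAR1 (-0.53, adjusted p of 0.304). The share lower in every batch, 15 of 68, was near the background. The share higher in every batch lay under its background and the share wholly below lay over it, and these gaps were not tested.

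Probe sets without a named gene held some of the largest differences. These were chosen after their values were seen and have no gene in the annotation. Probe set 252924_at stood at 33.4, 76.2 and 108.0 on water and at 515.0, 407.1 and 415.2 on KAR1 (2.77, adjusted p of 0.0462 over the measured probe sets). It had the largest mean difference of all measured probe sets, and all batches took part. Probe set 261768_at stood at 79.1, 22.6 and 53.7 on water and at 475.9, 165.4 and 195.3 on KAR1 (2.44, adjusted p of 0.000772). Probe set 250634_at went from 7.8, 6.6 and 7.8 to 56.5, 29.2 and 27.7 (2.28, adjusted p of 0.00311), so it reached 16 only on KAR1.

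Wild type seed was measured on 8 other arrays. Its values do not enter the ga1-3 differences, but its spread enters the test that chose the calls. A low spread in wild type favours both a call and agreement between the wild type batches. The counts below are thus not fully independent of that choice. Of the 107 calls, 106 differed in the same direction in wild type, all 63 of the upward and 43 of the 44 downward, while 49.1% of all measured probe sets were higher and 50.9% lower there. Of the 63, 56 were higher in all 4 wild type batches (10.4% of measured probe sets), and of the 44, 34 were lower in all 4 (10.2%). In wild type 157 of the measured probe sets passed (1.44%), and 50 of the 107 were among them. The exception in direction was AT4G34140, at 0.07 ± 0.20 in wild type.

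The mean differences of the calls were smaller in wild type. The median over the 63 was 0.81 in ga1-3 and 0.58 in wild type, and over the 44 it was -0.52 and -0.27. These probe sets were called in ga1-3, a choice that favours large values there, so the gap is a description. The difference between the KAR1 effects of the 2 genotypes was tested as an interaction in the same fits, and 0 probe sets passed in either. The smallest adjusted p was 0.333 over all probe sets and 0.078 over the measured ones, and 615 of 22746 and 466 of 10903 had an unadjusted p under 0.05.

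Some genes moved by nearly the same amount in both genotypes. PCH1 differed by 1.06 ± 0.20 in ga1-3 and by 1.05 ± 0.17 in wild type, XERICO by -0.45 ± 0.09 and -0.45 ± 0.08, COR28 by -0.55 ± 0.11 and -0.55 ± 0.09, and BIC1 by 0.63 ± 0.09 and 0.65 ± 0.08. The list medians were 0.63 and 0.85 for light signalling and -0.55 and -0.55 for the clock.

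Other genes stood apart in size without passing the interaction test. They were called on their ga1-3 difference and then picked for the gap. Their unadjusted p thus describe them and are no separate support for a difference between the genotypes. LHCB4.1 was at -0.52 ± 0.06 in ga1-3 and at -0.02 ± 0.05 in wild type, where 2 batches were higher and 2 lower (unadjusted interaction p of 0.000308, adjusted p of 0.876 over all probe sets). HIS1-3 was at -0.80 ± 0.15 and -0.18 ± 0.13 (unadjusted p of 0.0166), AT3G21380 at -0.53 ± 0.07 and -0.20 ± 0.06 (unadjusted p of 0.00658), and AT1G08230 at 0.81 ± 0.08 and 0.25 ± 0.07 (unadjusted p of 0.000782). The adjusted interaction p of HIS1-3, AT3G21380 and AT1G08230 was 0.9996 over all probe sets. Probe set 261768_at was at 2.44 in ga1-3 and at 0.30 in wild type (unadjusted p of 0.000253). Its adjusted interaction p was 0.876 over all probe sets and 0.078 over the measured ones.

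**Figure D5:**
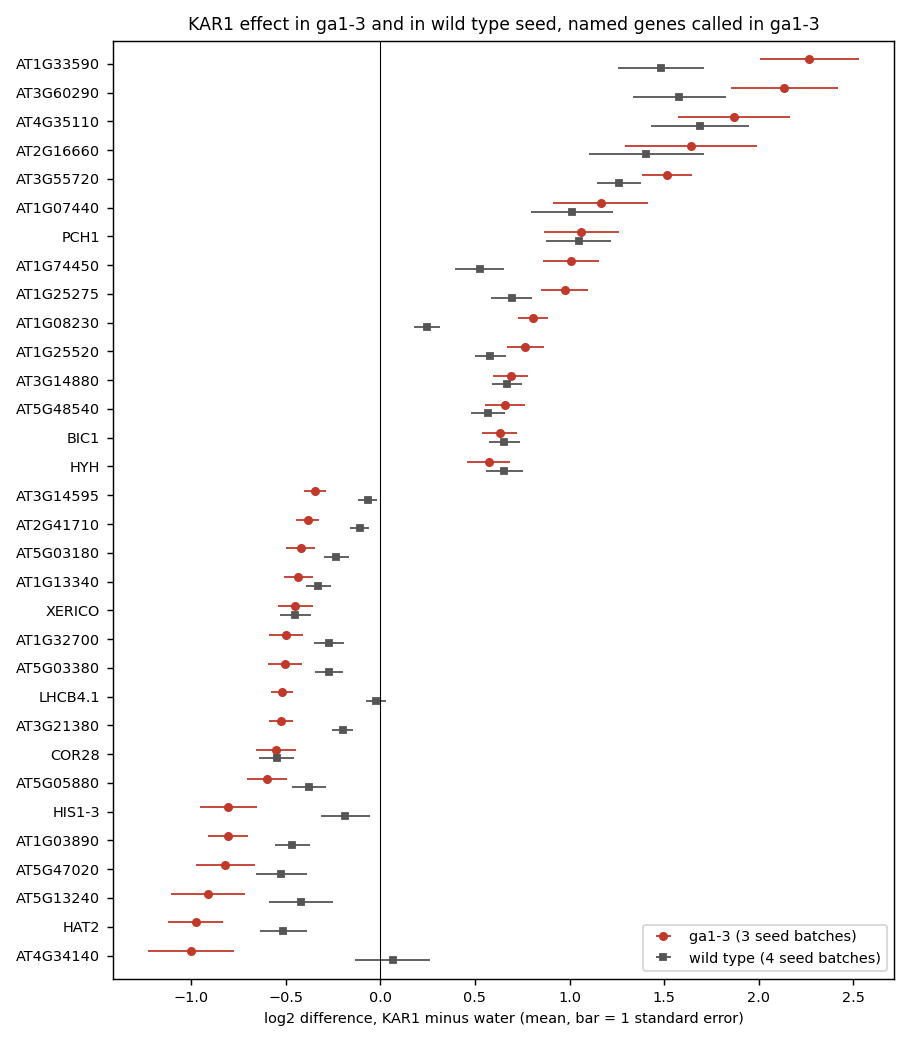
Log2 difference, KAR1 minus water (horizontal axis), in ga1-3 (red circles, 3 seed batches) and wild type seed (grey squares, 4 seed batches) for 32 named genes called in ga1-3, with bars of 1 standard error from the fit over all probe sets. All but AT4G34140 lie on the same side of 0 in both genotypes; PCH1, BIC1, COR28 and XERICO nearly coincide, while LHCB4.1 is at -0.52 and -0.02.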

How the data were processed

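RNA from seed was labelled by amplification from the 3' end and hybridised to 14 single-colour arrays, per the labels' protocols. The deposited intensity of each probe set was made by the authors with GCRMA, per the submitters' processing notes; the version, and whether all arrays were normalized together, are not given in the sources used here. Intensities were log2-transformed here. Array numbers and low signal, not depth, limit the precision. Gene names came from the platform annotation (13513 of 22746 probe sets with 1 gene, 503 with several, 8730 with none), of which 13436 matched a TAIR10.1 locus. BIC1, BIC2, PCH1 and COR28 are names of their loci in common use.

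The treatments were compared in R 4.3.3 with limma 3.58.1 (seed batch within genotype as block, 14 arrays, 5 residual degrees of freedom, eBayes with trend and robust, two-sided, Benjamini-Hochberg adjustment, threshold 0.05). The fit over all probe sets was the first choice and that over measured probe sets another setting listed with it; further settings of the latter were chosen after the data had been seen. The prior degrees of freedom were 2.34 and 7.21. The ± and SE values are standard errors of the fit over all probe sets and all 14 arrays, not of the ga1-3 pairs alone. An exact permutation test of 3 against 3 arrays cannot go below 0.1 and was not used. The scripts were tested on simulated data.

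The labels say that distinct harvests were assayed and that letters name seed batches. Deviations from the group means correlated within batches A, B and C of ga1-3 at 0.781, 0.616 and 0.565, and those of water B with KAR1 C (0.636) and water C with KAR1 B (0.571) were as high. The arrays were paired because the labels give the letters as seed batches; the values set batch A apart and do not pair B and C. Named genes were measured genes with 1 annotated gene that passed the fit over all probe sets, or had the 12 smallest p or 8 largest differences in each direction with all 3 batches alike, or the 4 smallest p of a list, and 15 genes set by name. Members, lists and tests were chosen with earlier results of these data known. Of the 332 entries of 21 lists, 64 have a named probe set and 42 were measured. No sequences or coordinates were used here.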

Additional observations from a re-analysis of the deposited data

Results flagged for a closer look

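In wild type seed the KAR1 effect of AT2G24240, a BTB/POZ domain gene, was 0.40 in seed batch A, far from the other 3 wild type batches (log2). The KAR1 effect of EXPA4, an expansin gene, was -0.86 in wild type seed batch B, far from the other 3. Each stood out because its gap to the nearest batch took up most of the range of the 4 (Dixon's test at 95%). Chance gives this in about 1 of 20 groups, and 66 named genes were screened, so a few such flags are expected by chance. Both genes had a mean log2 intensity under 4 over all 14 arrays, and the EXPA4 effect was 0 in wild type batches A and D. Groups of 3, such as the ga1-3 batches, were not tested this way.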

How the results depend on the processing

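The 3 calls over all probe sets became 0 without the replicate block, 0 with the 6 ga1-3 arrays alone, 1 after quantile normalization, 13 with array weights, 107 over measured probe sets and 469 with intensities under 16 set to 16; they ranged from 0 to 1 when a ga1-3 batch was left out. The interaction, with 0 calls, gave 50 with intensities under 16 set to 16 and 0 in the other settings run. The 107 calls became 0 without the replicate block (82 of them with an unadjusted p under 0.05), 6 with the ga1-3 arrays alone, 30 with plain eBayes and 168 with array weights; leaving out a ga1-3 or wild type batch gave 12 to 132. All 107 kept their direction in those settings of the fit over measured probe sets in which they were tested. Most of these settings could not reverse a call, since all 107 moved the same way in all 3 ga1-3 batches. The kept direction is thus no separate support. The upward and downward calls, 63 and 44, were 67 and 32 after quantile normalization and 70 and 28 after median centring, which moved the median of the measured probe sets from -0.02 to 0.00. AT3G55720 lost its call over all probe sets without the block (adjusted p of 0.536), with ga1-3 arrays alone (0.341), with plain eBayes (0.0566) and after quantile normalization (0.117). Genes near 0 changed sign: LEA4-5 (0.00062) and GID1A (0.0086) with median centring, and M17 (0.018) with quantile normalization. With a batch left out, GID1C ranged from -0.035 to 0.175, MYC3 from -0.055 to 0.090, LEA4-5 from -0.057 to 0.0024, SDP1-LIKE from -0.187 to 0.033, SLY1 from -0.0098 to 0.032, GID1A from -0.086 to 0.063 and M17 from -0.105 to 0.020. The causes were not tested.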
